A study of Homo sapiens with 14 samples.

Results

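The expression of 10 genes of the Hippo pathway was examined in 14 human neuroblastoma cell lines. They were taken by name: the coactivators YAP1 and WWTR1 (which encodes TAZ), the transcription factors TEAD1, TEAD2, TEAD3 and TEAD4, their cofactor VGLL4, and AMOTL2, ANKRD1 and LATS2. The choice was made with earlier results of these data known. All 10 were found among the 20049 gene symbols of the deposited count table, and all 10 passed the filter on low counts (at least 10 counts in at least 3 libraries), as did 18462 symbols in all. The series measured total RNA of untreated lines grown in RPMI1640 or DMEM with fetal bovine serum, under a title about telomere damage and anti-PD-L1 treatment. Each line gave 1 library, so a level in a line has no replicate error, and its interval covers counting error only. The lines were SK-N-SH and SH-SY5Y, IMR32 and IMR5-75, LS, GI-ME-N, SK-N-AS, NGP, Lan-6, SK-N-BE(2)C, CLB-GA, SK-N-FI, NBL-S and SK-N-DZ. SH-SY5Y is a subclone of SK-N-SH and IMR5-75 a subclone of IMR32, which is textbook knowledge and not in the labels.

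The Hippo pathway is a kinase cascade in which MST kinases activate LATS kinases, and LATS kinases phosphorylate YAP and TAZ so that they are held in the cytoplasm or degraded. Unphosphorylated YAP and TAZ enter the nucleus, where they bind DNA through the TEAD factors and raise genes for growth, adhesion and matrix. In neuroblastoma, cell lines are known to take an adrenergic, neuron-like state or a mesenchymal state, and YAP and TAZ are known for their part in the mesenchymal one. RNA levels do not show the phosphorylation or the place of YAP and TAZ in the cell.

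Levels are given as CPM, the counts of a gene per 1e+06 counts of its library, after scaling between libraries with trimmed means (TMM). Library totals ran from 35856642 counts in Lan-6 to 58644013 counts in LS. Lan-6 and GI-ME-N stood apart in the trend of levels with gene length: across genes, the rank correlation of a gene's deviation from its mean level with its length was -0.437 in Lan-6 and -0.328 in GI-ME-N, against -0.130 to 0.243 in the other lines. The same correlation with GC content was 0.627 in Lan-6, 0.201 in GI-ME-N and -0.370 in LS, and -0.212 to 0.0700 in the rest. Levels with the trend on GC content and length removed (the composition trend) are given for the listed genes where that changes the highest or lowest line or the leading TEAD gene. For YAP1, WWTR1, the TEAD genes and AMOTL2 the line that moved most was Lan-6, for example from 3.92 to 1.35 CPM in TEAD4 and from 8.04 to 3.73 CPM in TEAD3. Of 12 adrenergic markers, 8 (GI-ME-N) to 12 reached 1 CPM in every line. Summed mesenchymal markers were highest in GI-ME-N (40100 CPM), SK-N-SH (27000), SK-N-AS (3090) and LS (2530), against 211 to 990 CPM elsewhere.

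The sequences before the start sites of 4 of the genes described below are shown because they hold the core of the motif that TEAD factors are known to bind. The letters searched were GGAATG on the gene's strand and CATTCC, the same core on the opposite strand, and capitals mark each match. Each run is the 250 bases before a RefSeq start site on GRCh38.p14, 5′ to 3′ on the gene's strand: chr10:90921088-90921337, minus strand, for ANKRD1, chr6:131951373-131951622, minus strand, for CCN2 (CTGF in the count table), chr3:134374448-134374697, minus strand, for AMOTL2 and chr11:102110197-102110446, plus strand, for YAP1.
ANKRD1: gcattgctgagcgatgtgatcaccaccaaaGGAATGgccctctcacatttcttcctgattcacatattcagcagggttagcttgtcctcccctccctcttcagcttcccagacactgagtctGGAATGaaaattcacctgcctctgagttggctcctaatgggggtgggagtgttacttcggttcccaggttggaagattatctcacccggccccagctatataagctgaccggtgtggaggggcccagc
CCN2: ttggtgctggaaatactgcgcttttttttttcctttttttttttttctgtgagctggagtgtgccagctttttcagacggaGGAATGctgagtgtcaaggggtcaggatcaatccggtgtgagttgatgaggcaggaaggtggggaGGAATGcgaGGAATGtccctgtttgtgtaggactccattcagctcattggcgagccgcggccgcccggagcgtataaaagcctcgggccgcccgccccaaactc
AMOTL2: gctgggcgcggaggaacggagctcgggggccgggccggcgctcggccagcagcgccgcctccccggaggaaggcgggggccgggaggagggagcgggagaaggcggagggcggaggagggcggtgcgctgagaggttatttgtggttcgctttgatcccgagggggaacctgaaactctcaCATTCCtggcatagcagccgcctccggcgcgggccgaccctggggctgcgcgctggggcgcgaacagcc
YAP1: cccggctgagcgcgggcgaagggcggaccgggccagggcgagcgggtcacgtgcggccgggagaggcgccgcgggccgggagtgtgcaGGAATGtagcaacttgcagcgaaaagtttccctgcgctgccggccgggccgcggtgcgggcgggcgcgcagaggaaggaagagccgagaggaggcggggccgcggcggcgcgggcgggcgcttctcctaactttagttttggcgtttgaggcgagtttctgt
ANKRD1 held 2 copies, beginning 220 and 128 bases before the start, and CCN2 held 3, beginning 169, 104 and 95 bases before it. AMOTL2 and YAP1 held 1 copy each in the runs shown, and LATS2 had its copy 10 bases into the transcript. The other AMOTL2 window (chr3:134375368-134375667), for a start site nearer the 5′ end of the gene, held 0 copies. In windows of 300 bases (250 before to 50 after the start) the core was found for 4 of the 8 listed genes that had a window, and for 9 of the 16 genes of a list of known YAP and TAZ targets that had one. ANKRD1, AMOTL2 and LATS2 are in both sets, so these counts are not independent. Of all 35116 such windows, 14.0% held the core, which is 16.7% of the genes, and 1.37% of windows held 2 or more copies. No match was found in the windows of WWTR1, TEAD2, TEAD3 and VGLL4, while TEAD1 and TEAD4 were not analysed here for sequence. A match is a description of these letters and not a bound site.

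YAP1, the main coactivator of the pathway (chromosome 11, 102110461 to 102233423 in GENCODE 29 on GRCh38, plus strand), spanned a 1310-fold range. It was highest in SK-N-SH at 212 CPM (7732 counts), GI-ME-N at 98.3, LS at 88.1 and SK-N-AS at 59.2 CPM, and these 4 lines stood above all others. IMR5-75 followed at 16.3 CPM, then SK-N-DZ at 5.45, SK-N-BE(2)C at 4.90, SK-N-FI at 3.55 and IMR32 at 3.49 CPM. Lan-6 (1.06 CPM), CLB-GA (1.01 CPM), NBL-S (0.745 CPM) and SH-SY5Y (0.435 CPM) were lower, and NGP had the lowest value with 6 counts, or 0.162 CPM (95% Poisson interval 0.0595 to 0.353). Counting intervals overlapped between the neighbours SK-N-DZ and SK-N-BE(2)C, SK-N-FI and IMR32, and from each to the next in Lan-6, CLB-GA, NBL-S, SH-SY5Y and NGP, so their order is not resolved by counting alone. In bulk RNA, fewer expressing cells and less RNA per cell cannot be told apart.

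WWTR1, the paralog of YAP1 (chromosome 3, 149517235 to 149736714, minus strand), showed the same 4 lines on top with an empty range below them. SK-N-SH stood at 112 CPM, GI-ME-N at 71.4, SK-N-AS at 63.4 and LS at 31.2 CPM, while the other 10 lines lay between 0.253 (CLB-GA) and 1.35 CPM (IMR32). IMR5-75, next after these 4 for YAP1, had only 1.33 CPM of WWTR1, which is within the range of the low lines. Over the 12 lines without the 2 subclones, the widest gap took 0.524 of the log2 range of WWTR1, with 8 lines below it and 4 above. YAP1 had its widest gap between the same sets of lines, but at 0.343 of its range it was more graded. Per kilobase of longest transcript, YAP1 was 1.76 times WWTR1 in SK-N-SH, 1.28 times in GI-ME-N, 2.63 times in LS and 0.870 times in SK-N-AS. Per kilobase of merged exons YAP1 was above WWTR1 in all 4 lines, with 9.40 against 7.54 CPM per kilobase in SK-N-AS, so the order in SK-N-AS depends on the length used. In IMR5-75 the ratio per kilobase of longest transcript was 11.4.

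**Figure D1:**
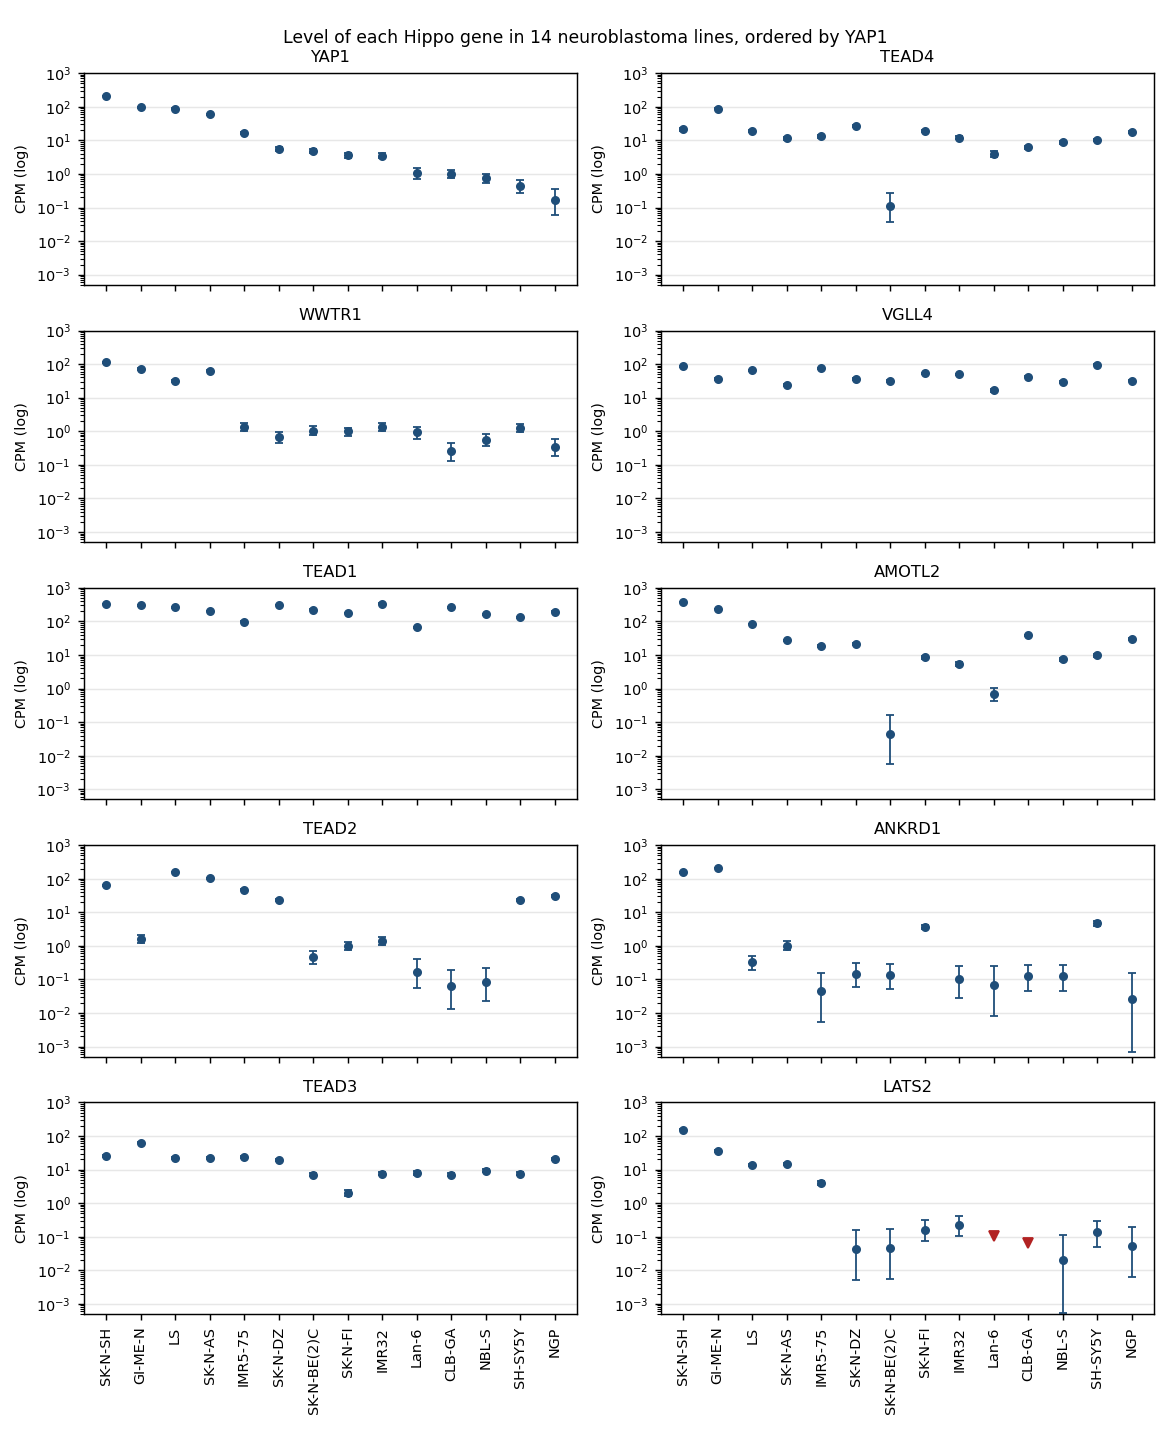
Each panel plots 1 gene in the 14 lines, ordered by YAP1 from left to right, as CPM on a log axis. Points are single libraries with 95% Poisson intervals, and red triangles mark the level that 3 counts would have where no count was seen. WWTR1 and LATS2 drop to a low level right of the first 4 or 5 lines, while TEAD1 and VGLL4 stay within a narrow band.

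TEAD1 (chromosome 11, 12674591 to 12944483, plus strand) was high everywhere. Its level ran from 67.2 CPM in Lan-6 over a median of 215 CPM to 337 CPM in IMR32, a 5.02-fold range, and the YAP1-low lines IMR32 (337 CPM), SK-N-DZ (308 CPM) and CLB-GA (262 CPM) stood beside SK-N-SH (331 CPM) and GI-ME-N (302 CPM). With the composition trend removed, the lowest line was IMR5-75 (88.2 CPM) and the highest GI-ME-N (395 CPM). The standard deviation of log2 CPM over the 14 lines was 0.69 for TEAD1, below the median of 0.85 over all genes that passed the filter.

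TEAD2 (chromosome 19, 49340595 to 49362457, minus strand) was clearly expressed in some lines and low in the other 7. LS had 161 CPM, SK-N-AS 103, SK-N-SH 64.0, IMR5-75 46.8, NGP 30.9, SK-N-DZ 23.2 and SH-SY5Y 23.1 CPM. The other 7 lines were at or under 1.61 CPM, down to 3 counts (0.0631 CPM) in CLB-GA. GI-ME-N, second for YAP1, was among these 7 lines, and NGP, with the lowest value for YAP1, was not. The standard deviation of TEAD2 was 3.78, and 99.2% of genes had a smaller one.

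TEAD3 (chromosome 6, 35473597 to 35497076, minus strand) and TEAD4 (chromosome 12, 2959330 to 3040673, plus strand) peaked in GI-ME-N. TEAD3 ran from 2.05 CPM in SK-N-FI over a median of 14.2 CPM up to GI-ME-N (63.3 CPM), with 7 lines at 10 CPM or more. TEAD4 ran from 5 counts (0.114 CPM) in SK-N-BE(2)C over a median of 12.6 CPM up to GI-ME-N (86.6 CPM), with the next line, SK-N-DZ, at 27.2 CPM. Both genes are rich in G and C, and with the trend removed GI-ME-N was still highest, with TEAD3 at 44.9 CPM and TEAD4 at 50.7 CPM. SK-N-BE(2)C was the single line with TEAD4 under 1 CPM.

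Weighed per kilobase, the 4 TEAD genes made up different mixtures. TEAD1 was the most abundant in 10 lines, with its largest share of the summed level in SK-N-BE(2)C (91.0%), CLB-GA (83.7%) and IMR32 (79.5%). With the trend removed, its share in Lan-6 went from 60.9% to 88.8%, beside 88.6% in SK-N-BE(2)C and 80.7% in CLB-GA. TEAD2 led in LS with 57.2%, in SK-N-AS with 52.4% and in IMR5-75 with 41.1%. GI-ME-N was led by TEAD4 with 47.1% against 32.8% for TEAD1, but with the trend removed TEAD1 led there with 50.6%, so the order in GI-ME-N depends on that correction. The summed level was highest in LS (115 CPM per kilobase), GI-ME-N (109), SK-N-SH (86.1) and SK-N-AS (80.7), the 4 lines with the most YAP1, and lowest in Lan-6 (13). The 4 YAP1-high lines thus had 3 different leading TEAD genes as deposited (TEAD1 in SK-N-SH, TEAD2 in LS and SK-N-AS, TEAD4 in GI-ME-N).

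**Figure D2:**
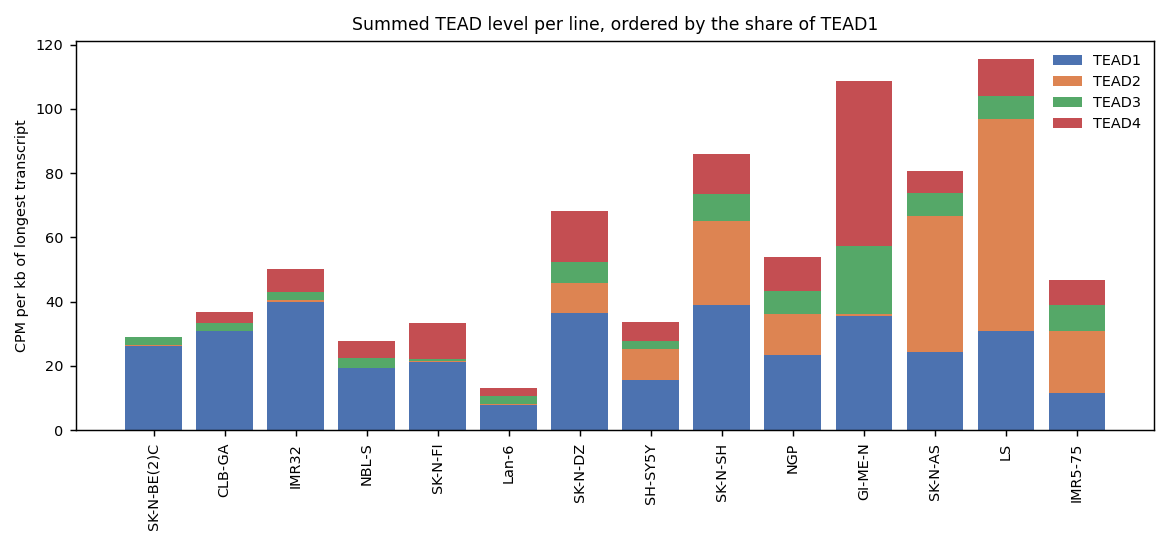
Bars stack the 4 TEAD genes as CPM per kilobase of longest transcript in each line, ordered by the share of TEAD1. Lines on the left are almost all TEAD1 (91.0% in SK-N-BE(2)C), TEAD2 fills the largest part of LS, SK-N-AS and IMR5-75, and TEAD4 that of GI-ME-N, where TEAD1 led once the composition trend was removed.

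VGLL4, a cofactor known to compete with YAP and TAZ for TEAD (chromosome 3, 11556070 to 11771350, minus strand), varied little. It ran from 16.4 CPM in Lan-6 over a median of 39.0 CPM to 97.1 CPM in SH-SY5Y, and all 14 lines had at least 10 CPM. SH-SY5Y, the line with the most VGLL4, was among the lowest for YAP1. The next lines for VGLL4 were SK-N-SH (85.5 CPM), IMR5-75 (74.4 CPM) and LS (66.2 CPM), which were among the highest for YAP1. The standard deviation of VGLL4 (0.74) was below the median of all genes.

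LATS2, a kinase that restrains YAP and TAZ and is itself a known target of theirs (chromosome 13, 20973032 to 21061547, minus strand), followed the coactivators with almost no level elsewhere. SK-N-SH had 153 CPM, GI-ME-N 36.3, SK-N-AS 14.6, LS 13.7 and IMR5-75 3.93 CPM. The other 9 lines were at or under 0.225 CPM, with no count in CLB-GA and Lan-6, where 3 counts would be 0.0631 and 0.102 CPM. Against the level of 3 counts in Lan-6, SK-N-SH was 1490-fold higher. The same 5 lines led for YAP1, and LATS2 had the widest spread of the 10 genes (standard deviation 4.05, with 99.6% of genes below it). Its paralog LATS1 was lowest in Lan-6 (6.68 CPM), highest in IMR5-75 (78.7 CPM) and had 43.3 CPM in SK-N-SH, below its median of 59.2 CPM.

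ANKRD1, a nuclear cofactor of muscle and a standard readout of YAP and TAZ (chromosome 10, 90912096 to 90921276, minus strand), separated the YAP1-high lines. GI-ME-N had 207 CPM and SK-N-SH 155 CPM, but SK-N-AS had 1.01 CPM and LS 0.325 CPM. SH-SY5Y (4.65 CPM) and SK-N-FI (3.57 CPM), both low in YAP1, stood above SK-N-AS and LS. The remaining 8 lines had 0.150 CPM or less, which is 1 to 7 counts.

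AMOTL2, a junctional protein that binds YAP and is also induced by it (chromosome 3, 134355874 to 134375479, minus strand), was high in the YAP1-high lines but was not limited to them. SK-N-SH had 382 CPM, GI-ME-N 235 and LS 83.9 CPM, and SK-N-AS at 27.3 CPM was passed by CLB-GA (38.1 CPM) and NGP (29.2 CPM), which had 1.01 and 0.162 CPM of YAP1. Lan-6 (0.682 CPM) and SK-N-BE(2)C (2 counts, 0.0456 CPM) were lowest. SK-N-BE(2)C was thus lowest for both AMOTL2 and TEAD4.

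CCN1 and CCN2, secreted matricellular proteins and the usual readouts of YAP and TAZ, were set beside the listed targets. CCN1 (CYR61 in the count table) was highest in SK-N-SH (1930 CPM), GI-ME-N (990) and LS (124), and SK-N-AS with 10.9 CPM was level with IMR5-75 (11.6 CPM). CCN2 was highest in SK-N-SH (2490 CPM) and GI-ME-N (85.9), and was low in SK-N-AS (0.895) and LS (0.735), below SH-SY5Y (3.30 CPM) and SK-N-FI (1.60 CPM). LS and SK-N-AS therefore had LATS2 with the YAP1-high lines, but ANKRD1 and CCN2 within the range of the YAP1-low lines. AXL, a receptor kinase on the target list, was also high in GI-ME-N (1310 CPM) and SK-N-SH (362). In LS (0.770 CPM) it lay within the range of the YAP1-low lines, and in SK-N-AS (2.52 CPM, 95% Poisson interval 2.07 to 3.05) above that range, which reached 0.961 CPM in SH-SY5Y. LS and SK-N-AS also differed from SK-N-SH and GI-ME-N in the mesenchymal marker sums given above, and the part of these in the target levels was not tested.

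**Figure D3:**
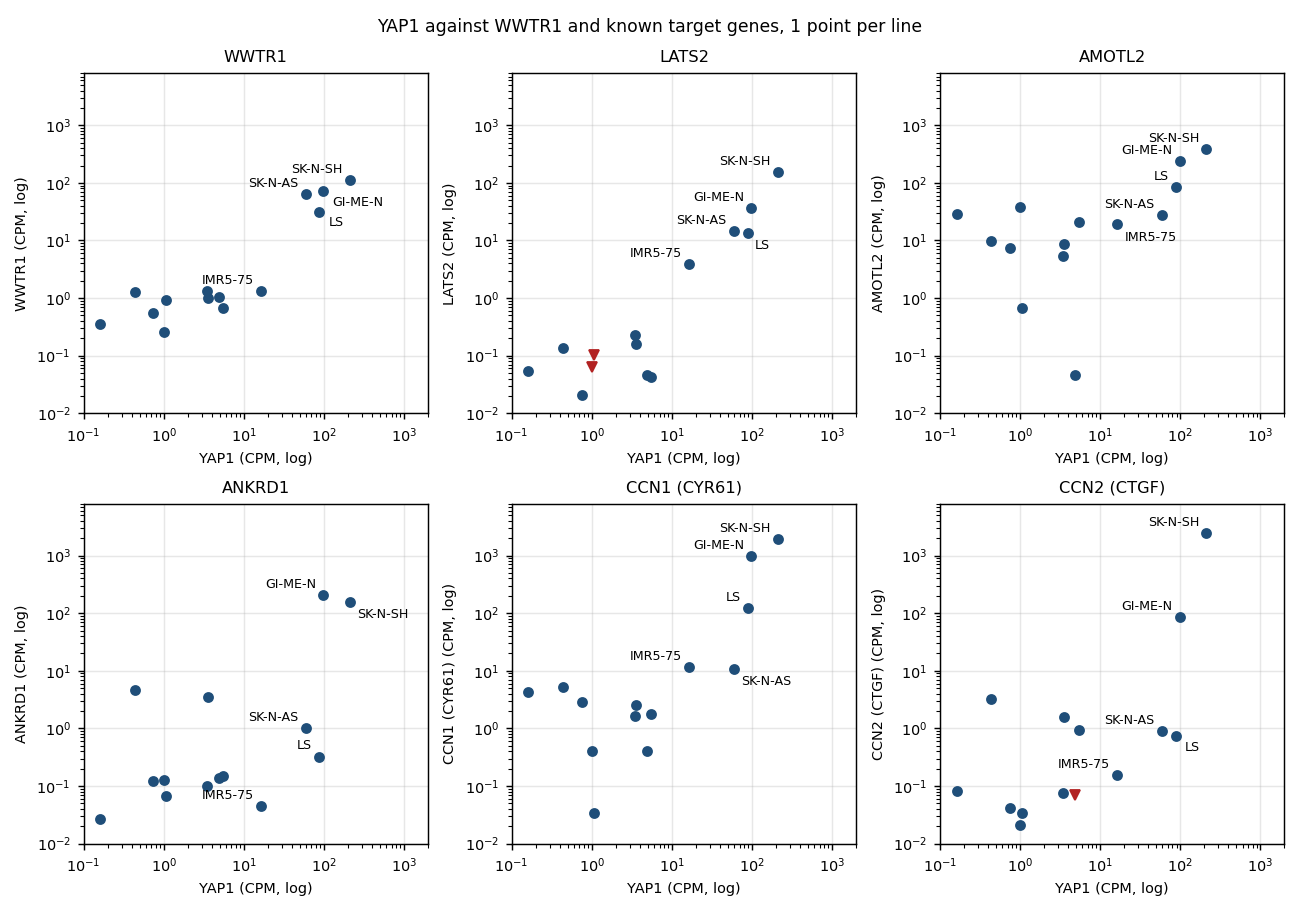
Each panel plots a gene against YAP1, both as CPM on log axes, with 1 point per line and names for the 5 lines with the most YAP1. Red triangles mark the level of 3 counts where no count was seen. LS and SK-N-AS lie near SK-N-SH and GI-ME-N for WWTR1, and among the YAP1-low lines for ANKRD1 and CCN2 (0.735 and 0.895 CPM).

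To ask which genes followed YAP1, the slope of every gene on the YAP1 level was tested over the 12 lines without the 2 subclones, with edgeR's quasi-likelihood test and Benjamini-Hochberg adjustment over 18302 genes. A slope is in log2 units per standard deviation of YAP1, which is 3.22 log2 units. Of the other 9 listed genes, 3 rose with YAP1 and 0 fell, where 0.885% of all genes rose and 0.481% fell. Since the listed genes were chosen with earlier results known, this count and those of the scans below are a description. WWTR1 rose by 3.07 per standard deviation (SE 0.33, adjusted p = 0.00226), LATS2 by 4.81 (SE 0.54, adjusted p = 0.00331) and ANKRD1 by 4.24 (SE 0.77, adjusted p = 0.0297). Since WWTR1 and LATS2 are split into 8 low and 4 high lines, their slopes mostly set these 2 sets of lines apart. LATS2 had 10 counts or more only in those 4 high lines, which are also the highest for YAP1. It thus passed the filter only through the lines where it is high, which favoured its call. AMOTL2 had a slope of 1.33 (SE 0.49, adjusted p = 0.208), TEAD2 of 1.09 (SE 0.68, adjusted p = 0.521) and TEAD1 of 0.25 (SE 0.17, adjusted p = 0.554), none past the threshold of 0.05. TEAD3 (0.58), TEAD4 (0.68) and VGLL4 (0.33) did not pass it either. The median slope was 1.09 for the listed genes and -0.02 for all genes. The call for WWTR1 held with each of the 12 lines left out in turn. That for LATS2 was lost without SK-N-SH (adjusted p = 0.0537), and that for ANKRD1 without CLB-GA, GI-ME-N, NBL-S or SK-N-SH (adjusted p up to 0.120). ANKRD1 also lost its call with limma on the deposited log2 values (slope 1.91, adjusted p = 0.0885), with all 14 lines (2.54, adjusted p = 0.0955) and without Lan-6 and GI-ME-N (3.50, adjusted p = 0.0961). LATS2 passed with limma at a slope of 2.46 on that scale. With SH-SY5Y and IMR5-75 in place of SK-N-SH and IMR32, no gene passed (1809 at an unadjusted p under 0.05), and the adjusted p of WWTR1 and LATS2 was 0.0959. Without SK-N-SH and GI-ME-N together no gene passed either (1114 at an unadjusted p under 0.05), and WWTR1 had a slope of 2.46 (SE 0.34, adjusted p = 0.224). LATS2 could not be tested there, since LS and SK-N-AS alone had 10 counts or more.

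As a description over the 12 lines, which share differences in depth and base composition, the Pearson correlation of log2 CPM with YAP1 was 0.751 for ANKRD1 (Spearman 0.860, and 0.538 without SK-N-SH and GI-ME-N). For AMOTL2 it was 0.519 (Spearman 0.503, and 0.209 without these lines), for TEAD2 0.569 (Spearman 0.622, and 0.597 without them) and for TEAD1 0.473 (Spearman 0.524, and 0.319 without them). The relation of AMOTL2 with YAP1 thus rested mostly on SK-N-SH and GI-ME-N. AMOTL2 was closest to TEAD4 among the listed genes that are not split, at 0.851 (Spearman 0.685, and 0.621 without SK-N-BE(2)C and GI-ME-N).

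MYCN, the main oncogene of this tumour, was next set against the 10 genes in the same way. MYCN was lowest in SK-N-SH (0.384 CPM), SK-N-AS (0.495) and GI-ME-N (1.33), and SK-N-BE(2)C had the most (2250 CPM). LS was an exception among the YAP1-high lines, with 947 CPM of MYCN beside 88.1 CPM of YAP1. Of the 10 genes, 0 rose and 1 fell with MYCN, where 1.07% of 18302 genes rose and 2.32% fell. The 1 gene was ANKRD1, with a slope of -4.22 (SE 0.76, adjusted p = 0.0265, edgeR with Benjamini-Hochberg adjustment) per standard deviation of MYCN (4.69 log2 units). YAP1 had a slope of -1.12 (SE 0.62, adjusted p = 0.278) and WWTR1 of -1.56 (SE 0.63, adjusted p = 0.149), neither past the threshold. TEAD1, TEAD2 and VGLL4 had slopes of 0.02, -0.18 and -0.05, whose sign turned under other settings. The ANKRD1 call was lost without GI-ME-N, IMR32, NGP, SK-N-DZ or SK-N-SH (adjusted p up to 0.0678), and without LS the calls numbered 3, with WWTR1 and LATS2 added. LATS2 passed the filter there only through SK-N-SH, GI-ME-N and SK-N-AS, the lines with the least MYCN, which favoured its call. The ANKRD1 call was also lost with limma on the deposited log2 values (adjusted p = 0.0984) and with the subclones in place of the parent lines (adjusted p = 0.0752).

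Against a mesenchymal score, the mean centred log2 CPM of marker genes of which none is a Hippo gene, 6 of the 10 genes rose and 0 fell, where 3.37% of 18291 genes rose and 1.62% fell. YAP1 rose by 2.46 (SE 0.56, adjusted p = 0.0243), WWTR1 by 3.03 (SE 0.70, adjusted p = 0.0267) and LATS2 by 4.60 (SE 0.87, adjusted p = 0.00948) per standard deviation of the score (2.56 log2 units), by edgeR with Benjamini-Hochberg adjustment. ANKRD1 rose by 3.40 (SE 0.53, adjusted p = 0.00300), AMOTL2 by 2.04 (SE 0.43, adjusted p = 0.0185) and TEAD3 by 0.95 (SE 0.24, adjusted p = 0.0394). TEAD1 (0.21), TEAD2 (3.42), TEAD4 (1.03) and VGLL4 (0.32) did not pass. The median slope was 2.25 for the 10 genes and -0.04 for all genes tested. The calls for LATS2 and ANKRD1 held with each line left out in turn. LATS2 passed the filter only through SK-N-SH, GI-ME-N, LS and SK-N-AS, the lines with the highest scores, which favoured its call. YAP1 lost its call without SK-N-SH, AMOTL2 without GI-ME-N or SK-N-SH, WWTR1 without SK-N-BE(2)C, GI-ME-N, IMR32, NBL-S or SK-N-SH, and TEAD3 without NBL-S, LS, IMR32, GI-ME-N, CLB-GA or SK-N-BE(2)C. TEAD3 also lost it with the composition trend removed (adjusted p = 0.108) and with limma on the deposited log2 values (adjusted p = 0.0711). With the subclones in place of the parent lines YAP1 (adjusted p = 0.0828) and AMOTL2 (adjusted p = 0.0661) lost theirs. Without GI-ME-N and Lan-6, the lines that stood apart in the length trend, ANKRD1 and LATS2 kept theirs, so that 2 of the 6 remained. Without SK-N-SH and GI-ME-N, the 2 most mesenchymal lines, none of the 9 that could be tested passed, LATS2 being too low (5 had an unadjusted p under 0.05), and the slope of ANKRD1 was 0.43 (SE 0.92).

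**Figure D4:**
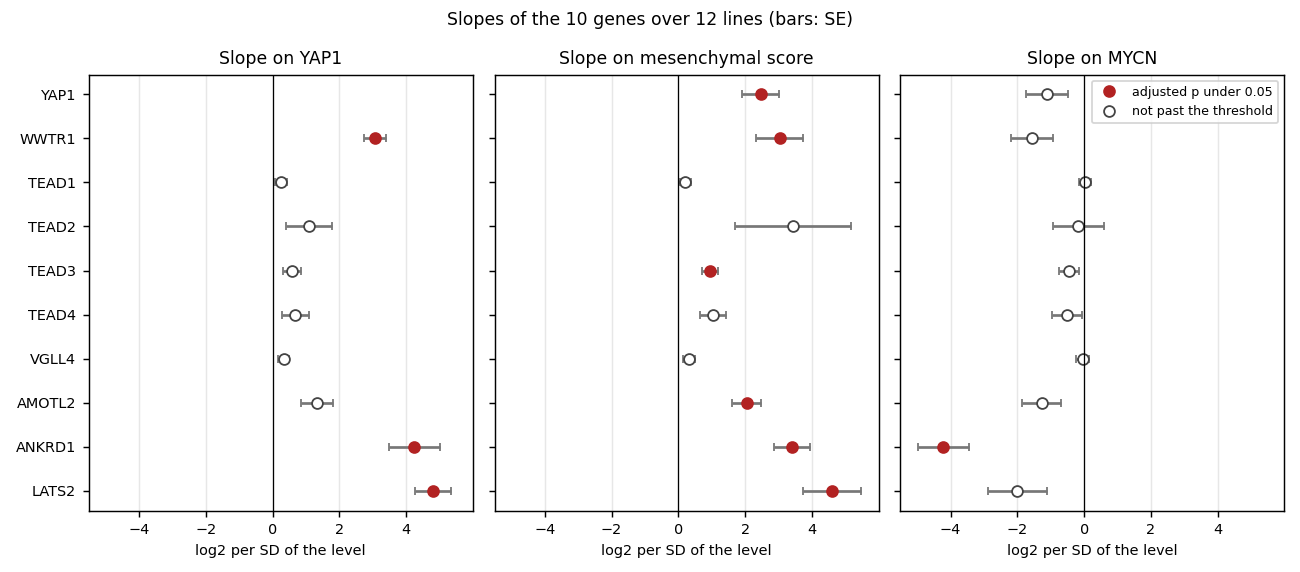
The slopes of the 10 genes on YAP1, the mesenchymal score and MYCN over 12 lines are shown in log2 units per standard deviation, with bars of 1 SE. Filled red points passed an adjusted p of 0.05 (3, 6 and 1 genes), and YAP1 has no slope on itself.

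Other parts of the pathway were read from lists, which hold some of the listed genes again. LATS2 is in the kinase module, AMOTL2 among the regulators, and LATS2, AMOTL2 and ANKRD1 among the targets. PTPN14 is both a regulator and a target, so the counts of the lists are not independent. Of the 11 genes of the core kinase module, LATS2 was the only one that rose with YAP1, where 0.885% of all genes rose. Among the lines of the scans, LATS2 passed the filter only through SK-N-SH, GI-ME-N, LS and SK-N-AS. These lines were the highest for YAP1 and for the mesenchymal score, which favoured the LATS2 calls in both scans. LATS2 and MOB1A, an activator of the LATS kinases, rose with the mesenchymal score, where 3.37% of all genes rose. MOB1A had a slope of 0.66 (SE 0.13, adjusted p = 0.0139, edgeR with Benjamini-Hochberg adjustment), lost without SK-N-SH. No gene of the module passed for MYCN, and the median slopes on YAP1, MYCN and the score were 0.15, 0.03 and 0.19. MAP4K4 ran from 124 CPM in SK-N-BE(2)C to 456 CPM in IMR32, though with the composition trend removed GI-ME-N (446 CPM) was above IMR32 (415 CPM). STK4, which encodes MST1, had its highest level in SK-N-FI (131 CPM) and its lowest in Lan-6 (32.5 CPM), where it stood at 57 CPM with the trend removed, above IMR32 (52 CPM) and LS (53.6 CPM).

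Of 14 upstream and junctional regulators, 3 rose with YAP1, 0 with MYCN and 6 with the mesenchymal score, and none fell, where 0.885%, 1.07% and 3.37% of all genes rose. PTPN14, a phosphatase that binds YAP, had 184 CPM in GI-ME-N, 146 in LS, 130 in SK-N-SH, 50.5 in SK-N-AS and 29.3 CPM in IMR5-75, against at most 11.5 CPM in the other lines. AJUBA, a scaffold that inhibits LATS kinases, had 64.0 CPM in SK-N-SH, 56.6 in LS, 55.1 in GI-ME-N, 44.0 in SK-N-AS and 11.7 CPM in IMR5-75, against at most 5.04 CPM elsewhere. Both thus ranked the same 5 lines on top as YAP1 did. PTPN14 rose by 2.16 (SE 0.34) and AJUBA by 2.42 (SE 0.32) per standard deviation of YAP1, and the third gene, WTIP, by 0.92 (SE 0.19). With each of the 12 lines left out in turn, AJUBA lost its call 1 time (without SK-N-SH), PTPN14 2 times (without GI-ME-N or SK-N-SH) and WTIP 10 times (adjusted p up to 0.174). All 3 calls were lost without GI-ME-N and Lan-6 together. With the score, NF2, FRMD6, PTPN14, AJUBA, WTIP and AMOTL2 rose, of which 2 remained without GI-ME-N and 3 without NBL-S or SK-N-SH. NF2, the upstream tumour suppressor merlin, was highest in GI-ME-N (140 CPM) and SK-N-SH (112 CPM), with a median of 36 CPM. VGLL3, the other measured cofactor of the VGLL family, rose with the score (slope 1.23, SE 0.31, adjusted p = 0.0416), but its level of 30.7 CPM in GI-ME-N was alone above 8.26 CPM, and without GI-ME-N and Lan-6 its slope was -0.03. VGLL1 and VGLL2 were not analysed here.

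Of 22 known YAP and TAZ targets, 21 were tested, FOXF2 being too low. With YAP1 8 rose and 0 fell, where 0.885% of all genes rose and 0.481% fell. The 8 were LATS2, ANKRD1, CCN1, CCN2, AXL, CRIM1, PTPN14 and CCDC80. The call for LATS2 is the one counted in the kinase module. It was favoured by the filter, both here and with the mesenchymal score below, since LATS2 passed only through the lines where it is high. CRIM1, a membrane protein that binds growth factors, had 1180 CPM in SK-N-SH, 509 in GI-ME-N, 31.6 in SK-N-AS and 12.7 CPM in LS, and rose by 4.03 (SE 0.56, adjusted p = 0.0106 by edgeR with Benjamini-Hochberg adjustment). CCN2 rose by 5.57 (SE 0.86, adjusted p = 0.0175) and CCN1 by 3.12 (SE 0.68, adjusted p = 0.0446). Without SK-N-SH none of the 8 kept its call, without GI-ME-N 4 did, and without CLB-GA or NBL-S 5 did. CCN1 lost its call in 11 of the 12 omissions of 1 line (adjusted p up to 0.174) and AXL in 8 of them (up to 0.132), while CCN2, CRIM1 and CCDC80 lost theirs in 1, without SK-N-SH. With limma on the deposited log2 values 5 of the 8 calls held, without GI-ME-N and Lan-6 together 1 did, and with the subclones in place of the parent lines 0 did. With the mesenchymal score 13 of the 21 rose and 0 fell, where 3.37% of all genes rose and 1.62% fell. These 13 were the 8 above with AMOTL2, MYOF, IGFBP3, NT5E and NUAK2. Without SK-N-SH and GI-ME-N together, 12 of these 13 could be tested and none kept its call. MYOF, a membrane repair protein, was high in SK-N-SH (494 CPM) and GI-ME-N (455), and low in SK-N-AS (3.20) and LS (0.445). IGFBP3 was highest in GI-ME-N (625 CPM), SK-N-AS (81.8) and SK-N-SH (63.6). With MYCN 6 fell and 0 rose (ANKRD1, CCN2, AXL, CRIM1, NT5E and NUAK2), where 2.32% of all genes fell and 1.07% rose. None of these 6 calls held without GI-ME-N, IMR32, NGP, SK-N-DZ or SK-N-SH, with limma on the deposited values or with the subclones in place. F3, coagulation factor III, was lowest in GI-ME-N (0.0618 CPM) and highest in CLB-GA (11.3 CPM), with SK-N-SH at 4.61, SK-N-AS at 4.59 and LS at 3.78 CPM, and it passed in none of the 3 scans. The median slope of the targets was 1.80 on YAP1, -1.59 on MYCN and 2.05 on the score. The target list was chosen with results of these data known, so its counts are a description.

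The parent lines and their subclones gave 2 comparisons within a genetic background, each of 1 library against 1, with no replicate check and no test. SK-N-SH exceeded SH-SY5Y 488-fold in YAP1 (95% counting interval 312 to 811), 1110-fold in LATS2 (510 to 3030), 89.1-fold in WWTR1 (68.3 to 118), 39.1-fold in AMOTL2 (35.5 to 43.2) and 33.4-fold in ANKRD1 (29.1 to 38.7). The TEAD genes differed much less, from 2.07-fold for TEAD4 to 3.29-fold for TEAD3, all higher in SK-N-SH. VGLL4 was higher in the subclone, by 1.14-fold (1.08 to 1.19). Of the 10 genes, 5 differed by over 2 log2 units, as did 17.8% of all genes.

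The second pair shared some of these differences and not others. TEAD2 was 32.9-fold higher in IMR5-75 than in IMR32 (25.3 to 43.6), LATS2 17.5-fold (9.01 to 38.9), YAP1 4.67-fold (3.90 to 5.64), AMOTL2 3.53-fold (3.04 to 4.11) and TEAD3 3.16-fold (2.78 to 3.59). TEAD1 went the other way, at 98.3 CPM against 337 CPM, a ratio of 0.292 (0.282 to 0.302). WWTR1 was at 0.988 of the parent's level (0.673 to 1.45), ANKRD1 had 2 and 4 counts, and TEAD4 had a ratio of 1.09 (0.965 to 1.23). In both pairs the line with more YAP1 also had more LATS2, AMOTL2, TEAD2 and TEAD3, while WWTR1 and ANKRD1 differed beyond counting error in the first pair only. Of the 10 genes, 3 differed by over 2 log2 units, as did 12% of all genes.

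**Figure D5:**
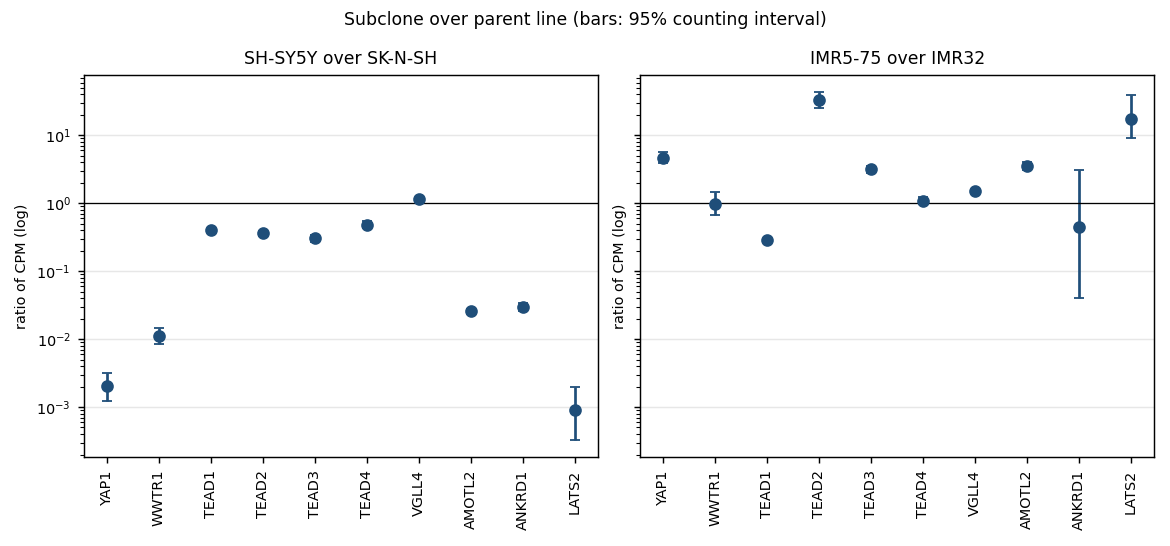
The ratio of CPM in the subclone to that in the parent line is plotted for each gene on a log axis, with 95% counting intervals. SH-SY5Y lies far below SK-N-SH for YAP1, WWTR1, AMOTL2, ANKRD1 and LATS2, while IMR5-75 lies above IMR32 for TEAD2 (32.9-fold) and LATS2 and below it for TEAD1.

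The genes whose pattern over the 12 lines was most like that of each listed gene were taken by Pearson's r of log2 CPM, among those whose mean level reached 5 CPM. For YAP1 they were WWTR1, FAM129A (now NIBAN1, r 0.936) and CD99 (r 0.928). WWTR1 and LATS2 were nearest to each other and both had FAM129A in second place, followed by AJUBA for WWTR1 and CYBRD1 for LATS2, with no r given because both are split. Among the 3 nearest to ANKRD1 were TRAM2 (r 0.968, and 0.875 once the 2 lines with the most extreme ANKRD1 levels were left out) and MYH9, non-muscle myosin (r 0.968, and 0.816 without them). AMOTL2 was nearest to WNT5A (r 0.953), TNS3 (r 0.942) and DNAJC10 (r 0.935), and TEAD2 to FGFRL1 (r 0.946), GPR137B (r 0.927) and SLITRK6 (r 0.926). TEAD1 was nearest to VKORC1L1 (r 0.950), TOP1 (r 0.937) and EIF1AX (r 0.928), TEAD3 to RRAS2 (r 0.900), PRDX4 (r 0.899) and PHLDB2 (r 0.898), TEAD4 to TSPAN5 (r 0.956), LDHA (r 0.946) and MDK (r 0.933), and VGLL4 to SLC25A30 (r 0.907), PCNP (r 0.868) and RBM7 (r 0.858). Without the 2 lines at the most extreme levels of the listed gene, r was lower for LDHA (0.514, with Spearman 0.622 over the 12 lines), TSPAN5 (0.728) and MDK (0.724) with TEAD4, for RBM7 (0.637) with VGLL4 and for EIF1AX (0.693) with TEAD1. The likeness of LDHA to TEAD4 thus rested mostly on those lines. Apart from WWTR1 and LATS2, no listed gene was among the 3 nearest of another.

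The steepest genes with YAP1 that kept an unadjusted p under 0.05 without SK-N-SH and GI-ME-N were TM4SF1 (slope 5.04), ANXA1 (5.01), FST (4.89), TGFBI (4.83) and CAVIN1 (4.15). The steepest that fell with it were TH, the first enzyme of catecholamine synthesis (-4.88), GJD2 (-4.28), KCNK9 (-3.87), WSCD2 (-3.70) and SEZ6L (-3.50). By the same rule with the mesenchymal score, TGFBI, CAV1, FST, TM4SF1 and MYOF rose most steeply, and IRX6, DRD2, DLK1, PCDH1 and TPBGL fell. CCN2 (slope 4.62) and LATS2 (4.60) were steeper on the score than TM4SF1 (4.55) and MYOF (4.41), but did not meet that rule. For MYCN the 2 lines left out were SK-N-SH and SK-N-AS. There NHLH2, CACNA1H, TMEM271, DSCAM and ANOS1 rose, and HAPLN1, EFEMP1, TGFBI, ANXA1 and CCN2 fell most steeply.

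YAP1 lies beside BIRC3, BIRC2 and TMEM123 on the long arm of chromosome 11. BIRC2, an inhibitor of apoptosis, was lowest in Lan-6 (11 CPM) and highest in SK-N-SH (67.2 CPM), with r = 0.796 to YAP1 (Spearman 0.825) as a description over the 12 lines. TMEM123 had r = 0.516 (Spearman 0.755) and BIRC3, at most 2.83 CPM, r = 0.478. On the other side CFAP300 had r = 0.637, CEP126 0.287 and ARHGAP42 0.0185, while PGR, TRPC6, MMP7 and MMP20 did not pass the filter. SK-N-SH was the highest line for YAP1, BIRC3, BIRC2 and TMEM123, and Lan-6 the lowest for the last 3.

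Markers of other cell types were read because some moved with the listed genes. Fibroblast markers, of which all 6 reached 1 CPM in GI-ME-N, SK-N-SH and SK-N-AS, summed to 2300, 588 and 572 CPM there, and to between 9.10 CPM (Lan-6) and 339 CPM (NGP) in the other lines. SK-N-AS had 469 CPM of PTPRC (CD45), against at most 2.92 CPM in the other lines, while CD3E, a T cell marker, had no count there. Over the YAP1 scan 1 of 6 fibroblast, 2 of 12 mesenchymal and 0 of 3 leukocyte markers tested rose, 1 of 12 adrenergic markers fell, and no endothelial or Schwann cell marker passed. With the mesenchymal score 2 of 6 fibroblast, 1 of 3 leukocyte and 1 of 5 Schwann cell markers rose and 3 of 12 adrenergic markers fell. With MYCN 3 of 6 fibroblast, 2 of 12 mesenchymal and 1 of 3 leukocyte markers fell. Of all genes, 0.885% rose and 0.481% fell with YAP1, and 3.37% rose and 1.62% fell with the score. With MYCN 1.07% of all genes rose and 2.32% fell. The part of these markers in the levels of the listed genes was not tested.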

How the data were processed

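Total RNA of 14 cell lines was isolated with TRIzol and sequenced as TruSeq libraries, 1 per line, per the labels' protocols. Per the submitters' processing notes, GRCh38, DESeq2 1.48.2 and kallisto 0.44.0 were used, with no role stated. Annotation, gene summing and filters were not given in the sources used here. Counts deposited by the authors were read as estimated counts (expected counts rounded to whole numbers), since the values are whole and no source states the unit. The log2 values deposited by the authors were used only as an alternative scale, since their settings are not stated. Library totals ran from 35856642 to 58644013 counts, intervals cover counting error only, and no pair of the 91 library pairs held the same counts (smallest chi-square per gene 271).

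CPM (TMM factors) and log2 CPM (prior count 2) were computed with edgeR 4.0.16 in R 4.3.3. Slopes on YAP1, MYCN and a mesenchymal score were tested with edgeR's quasi-likelihood test over 12 lines (without the 2 subclones), after a filter of 10 counts in 3 libraries, with Benjamini-Hochberg adjustment over all genes and a threshold of 0.05, and were tested on simulated data. P-values measure the spread between single libraries of different lines. A level counted as split where its widest gap, with 3 lines on each side, was over 0.4 of its range. A composition trend was removed as an alternative, with a spline of 4 degrees of freedom on GC content and length from GENCODE 29, which matched 98.7% of symbols. Other alternatives were DESeq2 1.42.0, limma 3.58.1, other line sets, no filter and a prior count of 0.5.

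Named were the 10 genes, list genes that were called or at the ends of a list's level, the 3 nearest genes by r, 5 neighbours of YAP1 on each side, and the 5 steepest genes per scan and direction with at least 5 CPM that kept p under 0.05 without the 2 farthest lines. F3, LATS1, PTPRC and CD3E were named after their values were seen. Values of a few genes are not reported here. The members and lists were chosen with earlier results of these data known. Promoter sequences are from RefSeq on GRCh38.p14.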

Additional observations from a re-analysis of the deposited data

How the results depend on the processing

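No paired analysis was possible because the labels give 1 library per line and no replicate numbers. DESeq2 size factors, no filter, a prior count of 0.5 and the removed composition trend kept the counts of genes called within 1.5 times in all 3 scans. DESeq2's Wald test called 1690, 3265 and 2744 genes for YAP1, MYCN and the mesenchymal score, against 250, 619 and 913 with edgeR. With limma on the deposited log2 values 453 genes passed for YAP1 (169 rising and 284 falling, against 162 and 88) and 380 for MYCN (201 and 179, against 195 and 424), and 0 of the 10 listed genes passed for MYCN (3 at an unadjusted p under 0.05). With all 14 lines 1271 genes passed for MYCN. With the subclones in place of the parent lines edgeR called 0 genes for YAP1 and 0 for MYCN (1809 and 3910 at an unadjusted p under 0.05), 0 listed genes in either, and 483 genes for the score. Without the 2 farthest lines 0 genes passed for YAP1 (1114 at an unadjusted p under 0.05), 1421 for MYCN and 1 for the score, and 0 listed genes for YAP1 and for the score, where LATS2 could not be tested. Without Lan-6 and GI-ME-N, an alternative chosen after seeing the data, 8, 156 and 431 genes passed, and 2 listed genes for the score. Leaving out each line in turn gave 4 to 515 genes for YAP1, 4 to 1527 for MYCN and 360 to 1406 for the score, and 1 to 4, 0 to 3 and 3 to 6 listed genes. The lowest counts came without SK-N-SH for YAP1, without IMR32 for MYCN and without GI-ME-N for the score.

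Signs turned for some slopes. On MYCN, TEAD1 had -0.009 with all 14 lines, -0.164 with the trend removed and -0.018 without Lan-6 and GI-ME-N, and -0.043 to 0.125 with each line left out in turn. TEAD2 had 0.085 with the subclones in place, 2.218 without the 2 farthest lines and 0.042 with the trend removed, and -0.883 to 0.201 with each line left out. VGLL4 had 0.13 with limma, 0.18 with the subclones in place, 0.161 without the 2 farthest lines and 0.068 with the trend removed, and -0.155 to 0.25 with each line left out. TEAD4 ranged from -0.684 to 0.027 and turned without GI-ME-N. On the score, without the 2 farthest lines, NF2 had -0.018, FRMD6 -0.011 and NT5E -1.811, and without Lan-6 and GI-ME-N VGLL3 had -0.027. The cause was not tested. With 1 library per line, depth limits only the low levels, such as LATS2 and ANKRD1 in lines with under 10 counts.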
